A study of Mus musculus with 4 samples.

Results

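The 10 genes described here encode ligands and enzymes through which tumour cells restrain immune cells, measured in Lewis lung carcinoma (LLC) cells taken back out of mouse tumours. They were taken by name as Cd274, Pdcd1lg2, Cd276, Cd47, Nt5e, Pvr, Nectin2, Lgals9, Cd80 and Vsir, out of 35905 genes in the data. All 10 had transcripts in the data, and 9 were abundant enough to enter the test between host genotypes, among 13718 genes tested. LLC is a lung carcinoma line that arose in a C57BL/6 mouse.

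Checkpoint ligands are surface or secreted proteins that bind inhibitory receptors on T cells, natural killer cells or macrophages. PD-L1, the product of Cd274, and PD-L2, the product of Pdcd1lg2, bind PD-1 on T cells, and PD-L1 is known to be induced by interferon-gamma. CD47 binds SIRP-alpha on macrophages and neutrophils and inhibits phagocytosis. The nectin family members PVR and nectin-2 bind TIGIT, which inhibits, and DNAM-1, which activates, so the balance of receptors on the lymphocyte sets their effect.

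LLC cells carrying TdTomato were implanted under the skin of the flank of C57BL/6 hosts, and tumours were taken 4 weeks later. Cells with TdTomato signal and without the leukocyte antigen CD45 were sorted, and their poly-A RNA was sequenced. The PAD4-DN group was 2 libraries from Mrp8Cre+, Padi4fl/fl hosts, and the WT group was 2 libraries from Mrp8Cre-, Padi4fl/fl hosts, so the WT hosts also carried the floxed allele. Mrp8Cre is active mainly in neutrophils, so the genotype is that of the host and not of the sorted cells. Whether the replicates came from separate animals is not given in the sources used here, so p-values measure the spread between these libraries. The libraries held 20036322 and 24142484 estimated counts for PAD4-DN replicates 1 and 2, and 23414984 and 25327974 for WT replicates 1 and 2. Padi4 itself had 6 and 0 counts in PAD4-DN and 0 and 2 counts in WT, and these values do not check a deletion made in host neutrophils.

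The label of the sorted cells was set against marker genes. The keratins Krt8 and Krt18 lay between 158 and 217 CPM (reads of a gene, scaled to a library of 1000000) in the 4 libraries, and the mesenchymal filament gene Vim between 3198 and 3809 CPM. The epithelial adhesion genes Epcam and Cdh1 stayed under 0.4 CPM, and the keratins Krt7 and Krt19 reached at most 1.38 CPM. Of the lung genes, Sftpc and Scgb1a1 were at 0 in all 4 libraries, and Nkx2-1, Sftpb and Napsa reached at most 0.586 CPM. Of 13 macrophage and monocyte markers all 13 were detected, with summed levels of 126 and 24.4 TPM (transcripts scaled for length, 1000000 per library) in PAD4-DN replicates 1 and 2 and 60.4 and 64.7 TPM in WT replicates 1 and 2. The 9 pan-leukocyte markers, all detected, summed to 45.7 and 5.41 TPM in PAD4-DN and 18.3 and 21.6 TPM in WT. Both sums were highest in PAD4-DN replicate 1 and lowest in PAD4-DN replicate 2. The 10 fibroblast markers, all detected, summed to 1577 and 1728 TPM in PAD4-DN and 1320.0 and 1289 TPM in WT, mostly Dcn and Lum. Among them Mfap5, chosen after its values were seen, was at 6.39 and 0.126 CPM in PAD4-DN and 0.0440 and 8.73 CPM in WT, so it was high in PAD4-DN replicate 1 and WT replicate 2. Clec3b showed the same split, at 4.83 and 0.0838 CPM in PAD4-DN and 0.0440 and 2.30 CPM in WT. Pdgfra, Col14a1, Pi16 and Dpep1 were also higher in these libraries than in the others. Dcn, Lum, Dpt and Ly6c1 did not follow the split. Lum was at 343 and 681 CPM in PAD4-DN and 425 and 442 CPM in WT. In bulk samples, fewer cells of a type and less RNA per cell cannot be told apart.

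Cd47 was the most abundant of the 10 genes, and Pdcd1lg2 was not detected. The macrophage-restraining ligand gene Cd47 was at 227 and 263 TPM in PAD4-DN and 226 and 213 TPM in WT. That placed it between the 97.2 and 97.7 percentiles of detected protein-coding genes in each library. It made up 65.2% and 68.6% of the TPM summed over the 10 genes in PAD4-DN and 66.1% and 61.7% in WT. Pdcd1lg2 had 0 counts in all 4 libraries. For counting error only, a count of 0 allows up to 3 counts, which is 0.146 and 0.126 CPM in PAD4-DN and 0.132 and 0.119 CPM in WT.

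**Figure D1:**
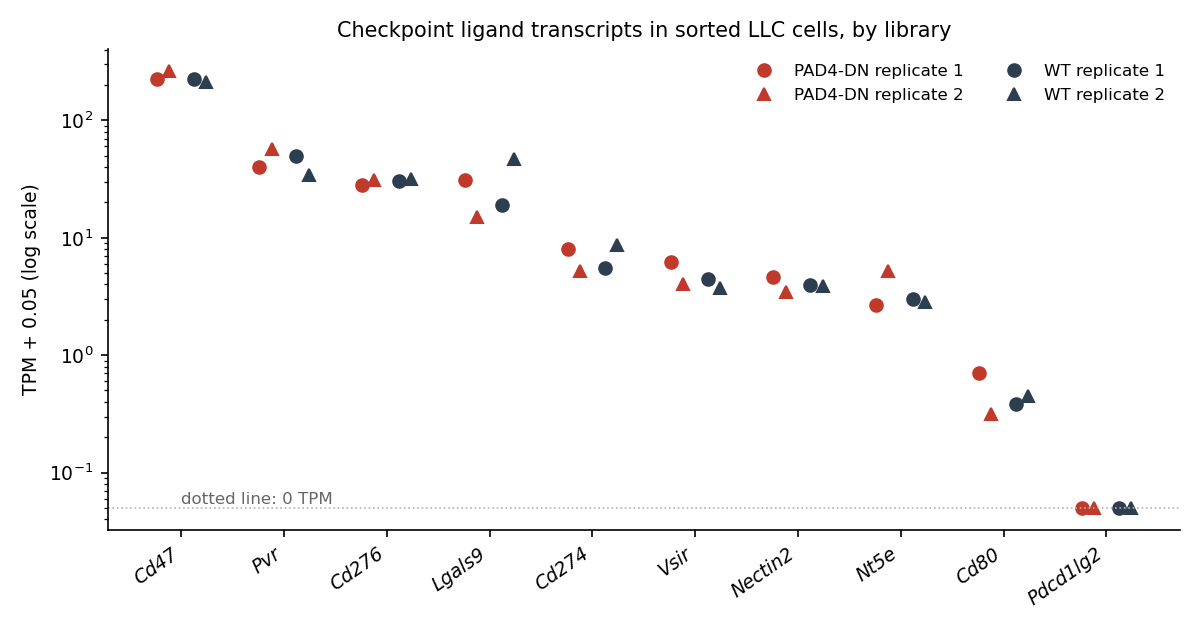
TPM of each of the 10 genes in each library, on a log scale after adding 0.05, with PAD4-DN libraries in red left of WT libraries in dark blue, circles for replicate 1 and triangles for replicate 2. Genes are ordered by mean TPM, with Cd47 at 232 TPM at the left and Pdcd1lg2, at 0 in every library, on the dotted line.

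Pvr and Cd276 came next in level. Pvr, which encodes the poliovirus receptor CD155, was at 40.3 and 56.7 TPM in PAD4-DN and 49.5 and 34.5 TPM in WT. Cd276, which encodes the B7 family protein B7-H3, was at 28.3 and 30.8 TPM in PAD4-DN and 30.6 and 31.9 TPM in WT, the narrowest spread of the set relative to its level. Pvr exceeded Cd276 in all 4 libraries when every transcript was summed. With protein-coding transcripts alone the mean of Pvr over the 4 libraries was 34.7 TPM, against 45.2 TPM with all transcripts, because 4 retained-intron transcripts held the rest. The coding transcript Pvr-201 was at 27.1 and 47.4 TPM in PAD4-DN and 39.2 and 24.98 TPM in WT, so on that basis it lay below Cd276 in PAD4-DN replicate 1 and WT replicate 2.

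Lgals9 and Cd274 followed. Lgals9, which encodes galectin-9, a ligand of TIM-3, was at 30.7 and 15.1 TPM in PAD4-DN and 19.1 and 46.7 TPM in WT. Its range overlapped that of Cd276, which it exceeded in 2 of 4 libraries. Cd274 was at 8.01 and 5.15 TPM in PAD4-DN and 5.46 and 8.59 TPM in WT, between the 44.0 and 51.3 percentiles of detected protein-coding genes.

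The remaining detected genes were low. Vsir encodes VISTA, an inhibitory B7 family protein known mainly from myeloid cells, and was at 6.16 and 4.02 TPM in PAD4-DN and 4.41 and 3.68 TPM in WT. Nectin2 was at 4.61 and 3.40 TPM in PAD4-DN and 3.88 and 3.81 TPM in WT. Nt5e encodes CD73, the enzyme that makes extracellular adenosine from AMP, and was at 2.60 and 5.16 TPM in PAD4-DN and 2.95 and 2.79 TPM in WT. The ranges of Cd274, Vsir and Nectin2 each overlapped that of the next gene in this order, and Nt5e lay above Cd80 in all 4 libraries. The high Nt5e value in PAD4-DN replicate 2 included 1.81 TPM of Nt5e-204, a noncoding transcript of 280 bases listed at 0 in the other libraries. Without it, the coding transcript Nt5e-201 was at 2.48 and 3.31 TPM in PAD4-DN and 2.82 and 2.67 TPM in WT. Cd80, a ligand of both CD28 and CTLA-4, had 20 and 11 counts in PAD4-DN and 6 and 16 counts in WT, or 0.655 and 0.268 TPM and 0.330 and 0.402 TPM.

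Promoter windows of the most abundant gene and of the undetected one are shown because they mark the ends of this order. Of the 2 windows listed for Cd47 the first is printed. The windows run from 250 bases before to 50 bases after the start of the gene in RefSeq on build GRCm38.p6, an earlier build than that of the expression values. A window was found for 9 of the 10 members, and Pvr had no entry. Capitals mark matches, on either strand, to the GC box GGGCGG, found in 35.7% of 32851 such windows, and to the hypoxia response core ACGTG, found in 19.6%. The windows were also searched for GAAANNGAA (interferon-stimulated response element, ISRE, 8.56%), TTCNNNGAA (interferon-gamma activated site, 8.3%), GGGANNTTC (a kappa-B form, 3.94%) and TATAAA (13.6%). No matches marked in these windows overlap.
Cd47 (chr16:49855404-49855703, plus strand): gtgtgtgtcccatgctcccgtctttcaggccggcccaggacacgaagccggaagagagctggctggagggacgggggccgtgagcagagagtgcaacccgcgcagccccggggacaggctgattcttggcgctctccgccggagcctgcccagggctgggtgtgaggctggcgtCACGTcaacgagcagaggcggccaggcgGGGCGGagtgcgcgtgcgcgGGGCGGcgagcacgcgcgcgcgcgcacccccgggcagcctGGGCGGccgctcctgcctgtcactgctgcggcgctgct
Pdcd1lg2 (chr19:29410669-29410968, plus strand): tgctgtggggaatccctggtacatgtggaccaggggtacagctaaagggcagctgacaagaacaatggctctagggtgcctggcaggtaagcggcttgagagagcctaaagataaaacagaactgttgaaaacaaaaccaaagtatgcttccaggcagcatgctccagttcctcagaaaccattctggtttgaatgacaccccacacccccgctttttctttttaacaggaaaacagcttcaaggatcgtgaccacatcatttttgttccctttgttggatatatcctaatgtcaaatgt

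The Cd47 window held 35 CG dinucleotides and 3 GC boxes, and the Pdcd1lg2 window held 3 CG dinucleotides and no match to any of the 6 motifs. The median over all windows was 7 CG dinucleotides. Among the other members the count was 39 for Cd276, 23 for Nt5e, 20 for Nectin2, 15 for Cd274, 15 for Vsir, 4 for Lgals9 and 3 for Cd80. The members with the fewest CG dinucleotides thus included the undetected Pdcd1lg2, the barely detected Cd80 and the well expressed Lgals9. A match is a description of letters, and a window without a match says nothing about a factor's binding.

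The comparison between hosts asked whether tumour cells differ in these genes with Padi4 deleted in host neutrophils. With edgeR's quasi-likelihood test no member reached an adjusted p of 0.05, where 0% of the 13718 genes passed and the smallest adjusted p over all genes was 0.988. At an unadjusted p under 0.05 there were 0 of 9 members, against 2.65% of all genes tested (364 genes). DESeq2 called 10 genes and limma-voom 0, none of them members. Of the 9 tested members, 5 had positive and 4 negative log2 fold changes, with a median of 0.013 against 0.0087 over all genes tested. The groups did not overlap for 1 of the 9 members, against 32.8% of all genes tested. With 2 libraries a group, an exact permutation test cannot give a two-sided p below 0.33.

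**Figure D2:**
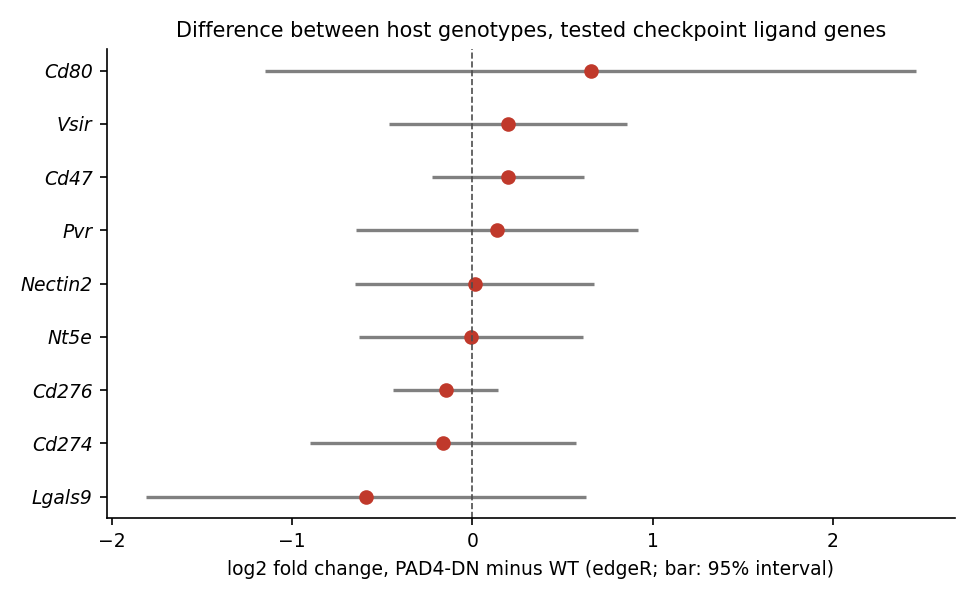
Log2 fold change, PAD4-DN minus WT, of the 9 tested members by edgeR, with bars for the 95% interval. Every interval includes 0, the narrowest being that of Cd276, -0.44 to 0.14, and the widest that of Cd80, -1.15 to 2.46.

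The best measured members bounded the difference most tightly. Cd276 was at 61.0 and 66.8 CPM in PAD4-DN and 71.0 and 70.7 CPM in WT, and was the member whose PAD4-DN libraries both lay below both WT libraries. Its log2 fold change was -0.15 (SE 0.12), with a 95% interval of -0.44 to 0.14 and an edgeR adjusted p of 0.988. Cd47 was at 459 and 587 CPM in PAD4-DN and 468 and 445 CPM in WT, with PAD4-DN replicate 2 above the other 3 libraries. Its log2 fold change was 0.20 (SE 0.17), with an interval of -0.23 to 0.62. Without PAD4-DN replicate 2 it was 0.0017 and without PAD4-DN replicate 1 it was 0.35. These intervals leave out a doubling or a halving of either transcript between the genotypes and do not show that the levels were alike.

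The immunoglobulin-family ligands Pvr, Nectin2 and Vsir also overlapped between the groups. Pvr was at 60.3 and 97.5 CPM in PAD4-DN and 88.7 and 54.9 CPM in WT, so each group held a high and a low library. The libraries differed by 1.62-fold within PAD4-DN and by 1.62-fold within WT, against 1.10-fold between the group means. Its log2 fold change was 0.14 (SE 0.31), which became -0.17 with WT replicate 2 left out and -0.26 with PAD4-DN replicate 2 left out. Nectin2 was at 7.03 and 5.41 CPM in PAD4-DN and 6.33 and 5.99 CPM in WT, with a log2 fold change of 0.013 (interval -0.65 to 0.68). Vsir was at 15.4 and 10.7 CPM in PAD4-DN and 13.1 and 9.72 CPM in WT, with a log2 fold change of 0.20 (interval -0.46 to 0.86). Without PAD4-DN replicate 1, the library with the highest pan-leukocyte sum, the log2 fold change of Vsir was -0.095, and without WT replicate 2 it was -0.0023. Vsir was lowest in WT replicate 2, whereas the pan-leukocyte sum was lowest in PAD4-DN replicate 2. The part of leukocyte transcripts in the Vsir values was not tested.

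Lgals9 and Cd274 varied more between libraries of a group than between the groups. Lgals9 was at 27.9 and 13.8 CPM in PAD4-DN and 18.9 and 43.8 CPM in WT, highest in WT replicate 2 and lowest in PAD4-DN replicate 2. It differed by 2.01-fold within PAD4-DN and 2.32-fold within WT, against 1.503-fold between the group means. Its log2 fold change was -0.59 (SE 0.49), with an interval of -1.81 to 0.63. That value rested on the library left in, at 0.14 without WT replicate 2, -1.07 without WT replicate 1, -1.19 without PAD4-DN replicate 1 and -0.17 without PAD4-DN replicate 2. Cd274 was at 19.2 and 12.5 CPM in PAD4-DN and 14.2 and 21.3 CPM in WT, with the libraries in the same order as for Lgals9. Its log2 fold change was -0.16 (SE 0.30), with an interval of -0.90 to 0.57, and it was 0.16 with WT replicate 2 left out and 0.11 with PAD4-DN replicate 2 left out. It was -0.43 with WT replicate 1 left out and -0.52 with PAD4-DN replicate 1 left out. Both genes were high in WT replicate 2 and PAD4-DN replicate 1, the libraries with the most Mfap5 and Clec3b. The sum of all fibroblast markers did not follow that split and was highest in PAD4-DN replicate 2. The macrophage marker sum was highest in PAD4-DN replicate 1 and lowest in PAD4-DN replicate 2. The part of fibroblasts or macrophages in either gene was not tested.

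**Figure D3:**
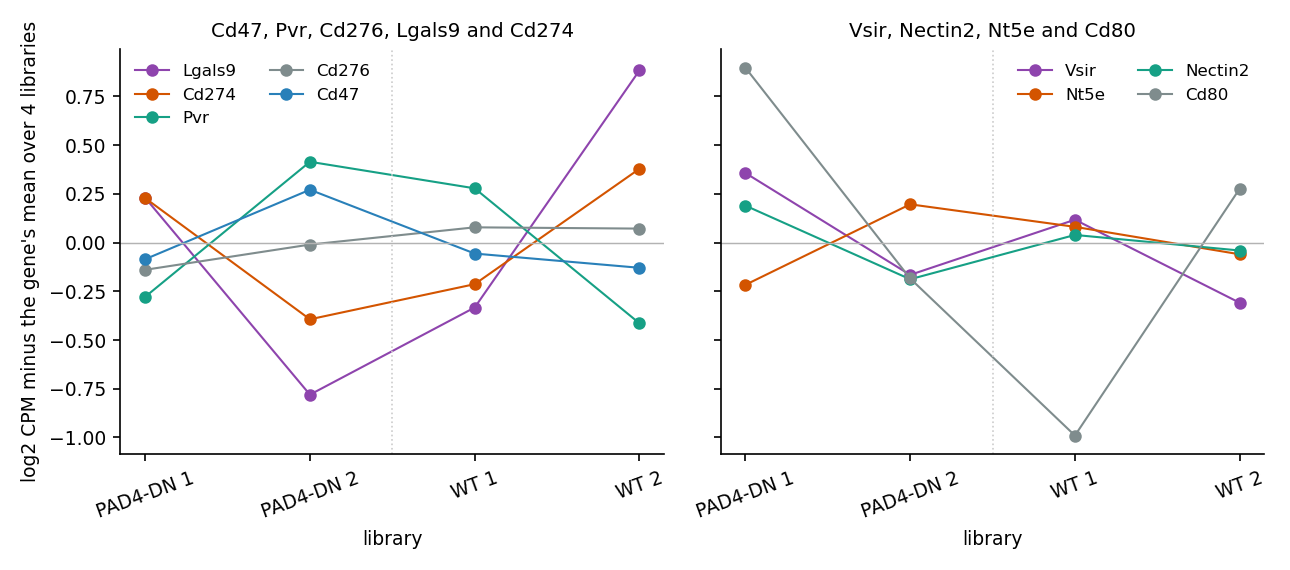
Log2 CPM of the 9 detected members in each library, relative to the gene's own mean over the 4 libraries, with PAD4-DN libraries left of WT libraries and lines joining the values of a gene. Lgals9 and Cd274 were above their means in PAD4-DN replicate 1 and WT replicate 2, where Pvr was below its mean, and Cd276 stayed nearest to its mean.

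The promoter windows of Cd274 and Lgals9 are shown because the libraries fell in the same order for both genes. They are from RefSeq on GRCm38.p6, with capitals for matches to the 6 motifs. In the Lgals9 window both capital stretches are ISRE matches read on the opposite strand. In the Cd274 window the capitals are, from the left, a kappa-B match, an ISRE match, a GC box and a hypoxia response core. All but the GC box are read on the opposite strand.
Cd274 (chr19:29367188-29367487, plus strand): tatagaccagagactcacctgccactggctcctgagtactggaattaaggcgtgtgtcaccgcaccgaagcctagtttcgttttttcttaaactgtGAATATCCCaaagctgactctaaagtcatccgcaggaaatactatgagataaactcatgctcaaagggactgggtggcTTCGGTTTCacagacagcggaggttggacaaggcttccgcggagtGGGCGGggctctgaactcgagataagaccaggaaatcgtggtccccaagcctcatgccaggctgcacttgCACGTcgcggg
Lgals9 (chr11:78984875-78985174, minus strand): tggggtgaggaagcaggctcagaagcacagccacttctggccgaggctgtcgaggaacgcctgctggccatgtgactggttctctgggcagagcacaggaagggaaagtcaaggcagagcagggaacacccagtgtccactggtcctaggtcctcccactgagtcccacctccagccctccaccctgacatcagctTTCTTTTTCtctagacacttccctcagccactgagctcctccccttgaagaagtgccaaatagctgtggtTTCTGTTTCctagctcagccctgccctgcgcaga

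Lgals9 held 2 ISRE matches, whose leftmost bases lie 54 bases before the start of the gene and at base 17 after it. Cd274 held 1, whose leftmost base lies 76 bases before the start, and its kappa-B match lies 154 bases before it. No other member with a window matched the ISRE or kappa-B letters. A stricter ISRE form that also requires a final A, found in 3.44% of windows, still matched Lgals9 at both places and no longer matched Cd274. A stricter kappa-B form that also requires a final C, found in 1.47% of windows, matched no member with a window. Both 9-letter forms were set after the matches of the stricter forms were seen.

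The genes whose library profile was most like that of Lgals9 and of Pvr, the members above 5 mean CPM with the widest range, were found among 9678 protein-coding genes over the 4 libraries. Likeness was the root mean square difference of centred log2 CPM. For Lgals9 the nearest was Gbp2, a guanylate-binding protein gene, with a difference of 0.0544, at 70.7 and 33.0 CPM in PAD4-DN and 43.3 and 106 CPM in WT. Next came the sulfatase gene Sulf2 at 0.131 and the class I heavy chain gene H2-Q4 at 0.133. Only 1 gene lay within 0.1 of the Lgals9 profile. For Pvr the nearest were the cytokine gene Lif at 0.0155, Mtss1 at 0.0467 and the connexin gene Gja1 at 0.0523, and 20 genes lay within 0.1. Lif was at 34.2 and 54.1 CPM in PAD4-DN and 49.2 and 30.3 CPM in WT. The neighbours were picked from 9678 genes for their likeness over only 4 libraries. Their likeness to a member thus follows from the choice, and a link between the genes was not tested.

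The low members Nt5e and Cd80 overlapped between the groups, and Cd80 had the widest interval of the tested members. Nt5e was at 6.83 and 9.10 CPM in PAD4-DN and 8.40 and 7.61 CPM in WT, with a log2 fold change of -0.0065 (interval -0.63 to 0.61). It was 0.18 without PAD4-DN replicate 1 and 0.065 without WT replicate 1. Cd80 was at 0.976 and 0.461 CPM in PAD4-DN and 0.264 and 0.635 CPM in WT. Its interval of -1.15 to 2.46 includes a difference of several-fold. Cd80 differed by 2.12-fold within PAD4-DN and 2.41-fold within WT. The parts of low counts and of spread between libraries in this interval were not tested. Cd80 was highest in PAD4-DN replicate 1, which also had the highest sums of macrophage and pan-leukocyte markers. Cd80 was lowest in WT replicate 1, whereas both sums were lowest in PAD4-DN replicate 2. Its log2 fold change of 0.66 fell to 0.023 once PAD4-DN replicate 1 was dropped. Dropping each other library in turn gave 0.17 (WT replicate 1), 1.42 (WT replicate 2) and 1.10 (PAD4-DN replicate 2). What leukocyte transcripts added to the Cd80 values was not tested.

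Cd47 transcripts differ in the length of their coding sequence, and the deposited estimates split its reads over 8 of 10 annotated transcripts. Cd47-201, with 324 codons, was at 104 and 139 TPM in PAD4-DN and 96.0 and 98.0 TPM in WT, and held 45.9% and 52.8% of the gene's TPM in PAD4-DN and 42.4% and 46.1% in WT. Cd47-204, with 258 codons, was at 39.8 and 53.6 TPM in PAD4-DN and 34.6 and 40.0 TPM in WT. Both were highest in PAD4-DN replicate 2, as was the gene total. Both were lowest in WT replicate 1, whereas the gene total was lowest in WT replicate 2. Cd47-202, with 271 codons, was at 28.6 and 16.7 TPM in PAD4-DN and 42.3 and 24.9 TPM in WT. It was lowest in PAD4-DN replicate 2 and highest in WT replicate 1, and the groups overlapped. These transcripts share most of their sequence and reads of 75 cycles were divided between them by an estimate, so the split is less certain than the gene total.

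**Figure D4:**
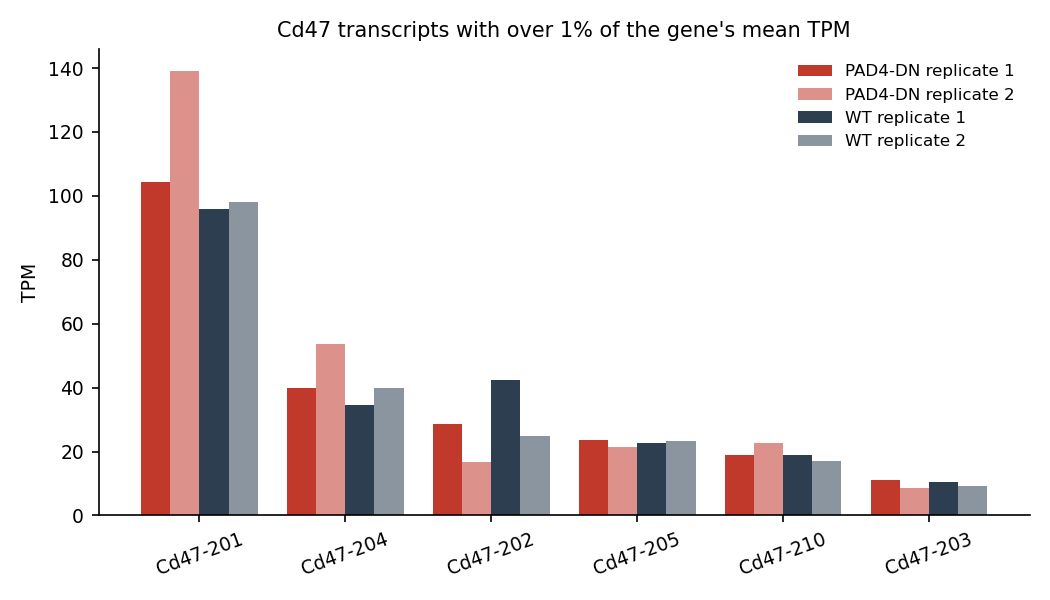
TPM of the 6 Cd47 transcripts with over 1% of the gene's mean TPM, in bars from 0 for PAD4-DN replicates 1 and 2 in red and WT replicates 1 and 2 in blue. Cd47-201 was highest in every library, and Cd47-202 was at 16.7 TPM in PAD4-DN replicate 2 and 42.3 TPM in WT replicate 1.

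In Lgals9, Lgals9-202, with 322 codons, held 96.8% of the gene's mean TPM, and Lgals9-203, with 353 codons, held 2.56%. Both Cd276 transcripts detected had 316 codons. In Nectin2, Nectin2-201, with 530 codons, held 56.5% of the mean TPM, and Nectin2-202, with 467 codons, held 43.5%. In Vsir, Vsir-201, with 309 codons, held 73.7%.

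Other ligands of checkpoint and related receptors were led by Lgals1, the galectin-1 gene, at a mean of 3367 TPM over the 4 libraries, and Calr, the calreticulin gene, at 538 TPM. Of 23 such genes, 14 were tested, 8 with positive and 6 with negative log2 fold changes and a median of 0.045. The smallest p-values were those of Nectin1, an adhesion ligand gene of the nectin family, at 10.2 and 9.35 CPM in PAD4-DN and 13.0 and 14.0 CPM in WT, and H2-T23, which encodes Qa-1, the ligand of NKG2A, at 27.9 and 27.0 CPM in PAD4-DN and 30.2 and 52.2 CPM in WT. Nectin1 had an unadjusted p of 0.0462 by edgeR, the only gene of these 14 under 0.05, and an adjusted p of 0.988. The ligand genes Vtcn1, Cd70 and Fasl had 0 counts in all 4 libraries.

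Receptors for these ligands were mostly too low to test. Cells without CD45 were sorted, so the values here do not measure the receptors of the tumours' leukocytes. Of 21 genes, counting Thbs1, which is not a receptor gene, 8 were tested. Of these, 4 had positive and 4 negative log2 fold changes, with a median of 0.043, and none had an unadjusted edgeR p under 0.05. Pdcd1, which encodes PD-1, and the NKG2A subunit genes Klrc1 and Klrd1 had 0 counts in all 4 libraries. Some receptor genes of the members were detected, with Tigit at a mean of 3.78 TPM, Havcr2 (TIM-3) at 1.22 TPM and Sirpa (SIRP-alpha) at 1.73 TPM. Sirpa was at 5.37 and 0.419 CPM in PAD4-DN and 1.36 and 5.16 CPM in WT. Lrp1, a receptor for calreticulin, was at a mean of 205 TPM, and Thbs1, the thrombospondin gene whose product binds CD47, at 8.95 TPM. Thbs1 was at 79.0 and 9.43 CPM in PAD4-DN and 18.1 and 37.1 CPM in WT, so the groups overlapped. Cd28 had the smallest p, at 0.634 and 0.545 CPM in PAD4-DN and 1.06 and 1.19 CPM in WT (edgeR adjusted p = 0.988).

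No gene of the adenosine pathway around Nt5e passed. Of 15 genes 12 were tested, 8 with positive and 4 with negative log2 fold changes, a median of 0.060, and none under an unadjusted p of 0.05. The highest were the adenosine kinase gene Adk, at a mean of 39.3 TPM, and the nucleoside transporter gene Slc29a1, at 32.7 TPM. Cd38, whose product consumes NAD on a route to adenosine, was at 40.0 and 65.1 CPM in PAD4-DN and 42.0 and 32.4 CPM in WT, a log2 fold change of 0.50 (SE 0.27). The adenosine receptor gene Adora3 was at 1.32 and 0.922 CPM in PAD4-DN and 0.703 and 0.357 CPM in WT, and was 1 of 2 genes of the 12 with both PAD4-DN libraries above WT, against 15.4% of all genes tested.

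All 27 regulators of PD-L1 and CD47 were abundant enough to test. Of these, 10 had positive and 17 negative log2 fold changes, with a median of -0.014, and 0 had an unadjusted p under 0.05. Myc and the interferon and cytokine receptor kinase gene Jak1 were the highest, at means of 287 and 141 TPM. The smallest p-values were those of Irf2, at 28.8 and 27.8 CPM in PAD4-DN and 33.2 and 33.1 CPM in WT, and of the NF-kB subunit gene Rela, at 69.1 and 59.9 CPM in PAD4-DN and 84.0 and 70.9 CPM in WT. For 5 of the 27 genes PAD4-DN lay below WT in both libraries without overlap, against 17.4% of all genes tested. Irf1, an interferon-induced transcription factor gene named here after its values were seen, was at 75.8 and 38.4 CPM in PAD4-DN and 44.3 and 73.2 CPM in WT. It ranked the libraries as Cd274 did, with the highest pair exchanged.

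Soluble and metabolic suppressors were led by the prostaglandin synthesis genes Ptges and Ptgs2, at means of 141 and 125 TPM. Of 16 genes 11 were tested, 5 with positive and 6 with negative log2 fold changes and a median of -0.011, none under an unadjusted p of 0.05. Ptgs2 was at 253 and 558 CPM in PAD4-DN and 512 and 203 CPM in WT, so the low libraries were PAD4-DN replicate 1 and WT replicate 2, as for Pvr. Arg1 was at 13.5 and 3.14 CPM in PAD4-DN and 5.89 and 4.44 CPM in WT, and Il6 at 1.76 and 1.43 CPM in PAD4-DN and 0.484 and 1.47 CPM in WT. Arg1 was highest in PAD4-DN replicate 1, where the pan-leukocyte and macrophage sums were highest, and their part in the Arg1 values was not tested.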

How the data were processed

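Poly-A RNA of sorted LLC cells was sequenced from 2 PAD4-DN and 2 WT libraries, with 100 ng RNA, 13 PCR cycles and single-end reads of 75 cycles, per the labels' protocols. The submitters' processing notes name kallisto and GRCm39, but the kallisto version, annotation release and strand setting were not stated there. The authors deposited, per the file headers, estimated counts and TPM per transcript, with lengths, the counts not normalized and the TPM scaled for effective length. Of 117486 transcripts, 116408 matched a gene of GENCODE M21 by identifier without version. The others, with 0.483% to 0.493% of counts, were left out. Counts were summed per gene and rounded. Reads that fit several transcripts are split by kallisto's own estimate. Without molecular identifiers PCR copies are not separate molecules, and limits from counts hold for counting error alone.

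PAD4-DN was compared with WT by edgeR 4.0.16 in R 4.3.3 (TMM, filterByExpr, quasi-likelihood test, Benjamini-Hochberg over 13718 genes at 0.05). Intervals are 95% and use the test's degrees of freedom. CPM uses TMM-scaled library sizes, and each log2 fold change is PAD4-DN minus WT. The edgeR test was checked on simulated counts. Alternatives were DESeq2 1.42.0, limma 3.58.1 (voom, and trend on log2(TPM + 1) and log2(TPM + 0.1) for genes averaging at least 1 TPM), DESeq2 size factors, no filter on low counts, genes averaging at least 5 CPM, a replicate block and each library left out. The standard error of log2 fold changes had a median of 0.20. The named genes are the 10 members, the 2 with smallest p and the 2 with highest mean TPM of each list around them, and the profile neighbours. Other list and marker genes were named outside this rule, among them genes at 0 counts, receptor genes of the members, and Irf1. The members and lists were chosen with earlier results of these data known.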

Additional observations from a re-analysis of the deposited data

How the results depend on the processing

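No member was called under any alternative, and 97 of 114 member values under alternatives kept their direction. The number of genes called was 0 by edgeR, with 364 at an unadjusted p under 0.05, against 10 by DESeq2 and 10 by edgeR without the low-count filter, each on 21921 genes. With a library left out it ran from 0 to 2. The other 17 member values reversed, 11 of them with a library left out, where the log2 fold change ran from -0.52 to 0.16 for Cd274, -1.19 to 0.14 for Lgals9, -0.26 to 0.52 for Pvr, -0.20 to 0.18 for Nectin2, -0.23 to 0.18 for Nt5e and -0.095 to 0.43 for Vsir. The other 6 were in Nt5e and Nectin2. Nt5e was at 0.00068 with DESeq2 size factors, 0.012 with a mean of at least 5 CPM, 0.28 on log2(TPM + 1) and 0.34 on log2(TPM + 0.1), where TPM includes the short transcript Nt5e-204. Nectin2 was at -0.0078 with limma-voom and -0.00020 without the filter. The cause of the reversals was otherwise not tested. The median of the members lay between -0.094 and 0.098 over all settings, and on log2(TPM + 1) it was 0.095 against 0.063 over all genes.

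With the replicate number as a block, 0 genes and 0 members were called and the median of the members was 0.0017. Libraries with the same number deviated oppositely from their group means (r = -0.32 across 13718 genes, which are not independent replicates). With the crossed pairing, added after the data were seen, 0 genes were called. At an unadjusted edgeR p under 0.05 there were 412 of 13718 genes, 1 of them a member. Members at few counts, such as Cd80, also carry more counting error relative to their level.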
